A study of Mus musculus with 24 samples.

Results

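The respiratory chain subunit genes are the nuclear genes that encode the protein subunits of the 5 enzyme complexes of oxidative phosphorylation. They were taken by symbol from the RefSeq gene table of the mouse assembly GRCm38.p6, as every protein-coding gene whose symbol begins with the stem of a subunit family. Symbols with Nduf and a family letter and number give complex I, Sdha to Sdhd complex II, Uqcr complex III, Cox4 to Cox8 complex IV and Atp5 complex V. This gave 87 of 21887 protein-coding genes on chromosomes 1 to 19, X and Y, with 40 genes for complex I, 4 for complex II, 8 for complex III, 18 for complex IV and 17 for complex V. The rule reads symbols and no measured value, but it was set with earlier results of these data known.

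Complexes I and II pass electrons from NADH and succinate to ubiquinone, complex III passes them on to cytochrome c, and complex IV, cytochrome c oxidase, hands them to oxygen. The proton gradient that complexes I, III and IV build drives complex V, the ATP synthase. Several subunits of complex IV exist as paralogues, with a widely used form and a form restricted to heart and muscle, lung or testis. Cox4i2 replaces Cox4i1 in lung and under low oxygen, and Ndufa4l2 is a target of hypoxia-inducible factor in other cells. Its paralogue Ndufa4 carries the name of a complex I subunit but is found in complex IV, so both are also given beside complex IV below.

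The cells were N1E115, a mouse neuroblastoma line described as NOS1-positive, held for 3 days at 4% oxygen or at 20% oxygen, with no other agent named. Chromatin immunoprecipitation and sequencing was done for H3K4me3, which marks promoters, H3K27ac, found at active promoters and enhancers, H3K4me1, typical of enhancers, H3K36me3, which lies over transcribed gene bodies, and H3K27me3, the Polycomb mark. Each mark had 2 libraries per oxygen level, and the labels do not state that these were separate cultures, so p-values measure only the spread between libraries, which may be technical. Of 12 markers of sympathetic neurons and neuroblastoma, 11 carried H3K4me3 at the start in all 4 libraries, and Nos1 was the exception with none in any. H3K36me3 covered 90.1% and 86.2% of the Nos1 window at 4% oxygen and 79.6% and 91.6% at 20% oxygen, with all 2001 bp at the start covered in each library.

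Peak lists held 26489 to 126503 peaks for H3K4me3, H3K27ac and H3K4me1, whose read depth is unknown. The broad islands of H3K36me3 held 13350093 to 25048785 reads per library and those of H3K27me3 held 8479517 to 12228541. H3K4me1 peaks covered 61.0 and 63.8 Mb of the genome at 4% oxygen and 106 and 81.8 Mb at 20% oxygen. Per the file headers, replicate 2 of every mark shared a flow cell between the oxygen levels. In replicate 1 only the H3K4me1 libraries did, so that for the other marks flow cell and oxygen cannot be told apart in that replicate. Within a shared flow cell, the oxygen levels lay on different lanes for H3K4me1 in both replicates and for H3K4me3 in replicate 2. Values are the share of a window, the gene record with 10 kb on either side, that the deposited peaks cover, or the covered bases within 1 kb of the gene's start, a stretch of 2001 bp. The windows of 77 of the 87 genes also hold part of another protein-coding record, so a window value belongs to the locus and not to the subunit gene alone. In bulk chromatin, fewer cells with a mark and less of the mark per cell cannot be told apart.

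The subunit genes carried the marks of active genes at both oxygen levels. H3K4me3 covered at least 200 bp of the start in all 4 libraries at 81 of the 87 genes (93.1%), against 53.5% of all protein-coding genes. For H3K27ac the same held at 75 genes (86.2%), against 42.7% of all genes and 78.7% of genes with H3K4me3 at the start. H3K36me3 covered a median of 88.5% of the gene record at 4% oxygen and 86.4% at 20% oxygen. The medians were 2.36% and 5.55% over all genes, and 76.3% and 79.0% over genes with H3K4me3 at the start. H3K27me3 covered at least 200 bp of the start in all 4 libraries at 1 gene, Ndufb4c.

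Of the 5 complexes, complex V had the highest median window share of H3K4me3 and H3K27ac in every library, a difference that was not tested. For H3K27ac complex V was also highest over the gene record and at the start, but not for H3K4me3. The median H3K4me3 share of the record was highest in complex III, 37.1% at 4% and 39.9% at 20% oxygen. In complex V it was 29.6% and 33.2%. At the start, H3K4me3 was widest in complex II, with medians of 1954 and 2001 bp, against 1884 and 1880 bp in complex V. The median window of its 17 genes had H3K4me3 over 15.1% and 17.7% at 4% oxygen and 19.4% and 17.1% at 20% oxygen. For complex I these values were 12.6% and 14.5% at 4% oxygen and 15.6% and 15.3% at 20% oxygen. H3K27ac covered 8.58% and 10.8% of the median complex V window at 4% oxygen and 8.02% and 8.48% at 20% oxygen. For complex IV it covered 3.61% and 3.99% at 4% oxygen and 4.50% and 3.28% at 20% oxygen. Complex IV holds 4 of the 6 genes without H3K4me3 at the start, which are described next.

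**Figure D1:**
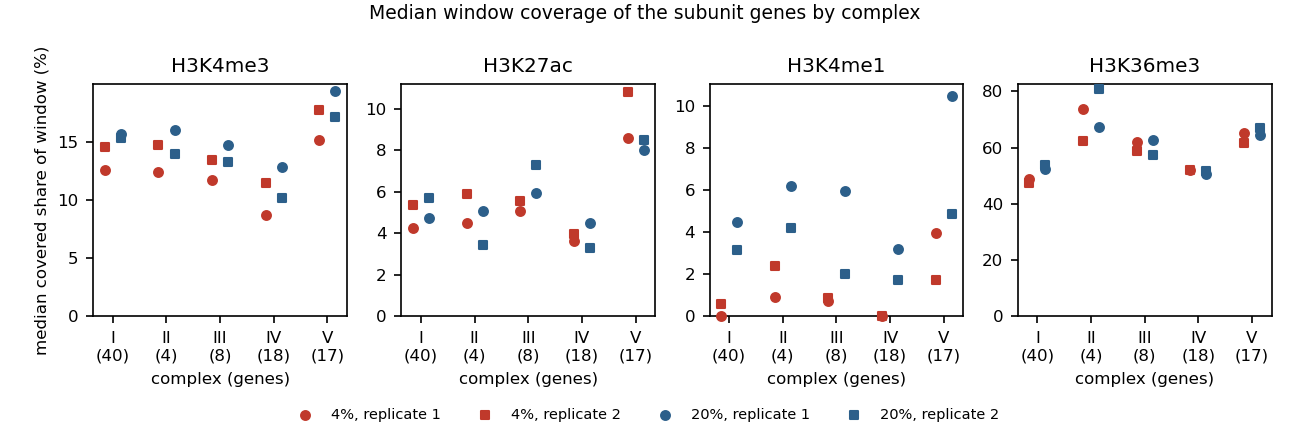
The vertical axis is the median covered share of the gene window in percent, the horizontal axis the complex with its number of genes, and each point 1 library of 4% or 20% oxygen, for 4 marks. Complex V lies highest for H3K4me3 and H3K27ac in each library, and the 4% libraries lie below the 20% libraries for H3K4me1 in every complex.

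H3K36me3 varied more between genes of a complex than between complexes. In complex I, it covered 100% and 100% of the window of Ndufb9, an accessory subunit, at 4% oxygen and 96.9% and 100% at 20% oxygen, and none of that of Ndufb4b in any library. In complex II, Sdha, the flavoprotein that oxidises succinate, was covered to 92.9% to 95.4% at 4% oxygen and 92.1% to 94.2% at 20% oxygen, and Sdhc, a membrane anchor, to 61.2% at 4% oxygen and 61.2% to 62.2% at 20% oxygen. In complex III, Uqcr11 had 82.4% and 61.4% at 4% oxygen and 75.7% and 83.2% at 20% oxygen. Uqcrfs1, the Rieske iron-sulfur protein, had 25.6% and 27.2% at 4% oxygen and 26.4% and 27.99% at 20% oxygen. In complex IV, Cox4i1 was highest and Cox6a2, with none, lowest. In complex V, Atp5md, a small subunit of the membrane part, had 91.9% and 97.1% at 4% oxygen and 93.4% and 97.1% at 20% oxygen. Atp5k, the e subunit, was the lowest there, with 35.0% and 27.4% at 4% oxygen and 25.5% and 36.9% at 20% oxygen. In each of these genes the values of the 2 groups overlapped or touched.

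Of the 8 restricted isoforms, 4 carried H3K4me3 at the start in all 4 libraries and 4 carried none, while all 7 widely used partners carried it. The 4 without were Cox6a2 and Cox8b, the heart and muscle forms, and Cox6b2 and Cox8c, the testis forms. The 4 with it were Ndufa4l2, Cox4i2, Cox7a1, another heart and muscle form, and Cox7b2. Cox7b2 had 1182 and 908 bp of H3K4me3 at its start at 4% oxygen, against 1197 and 1006 bp at 20% oxygen, and H3K27ac over 590 and 363 bp at 4% oxygen, against 537 and 311 bp at 20% oxygen, with H3K36me3 over at most 7.40% of its record. Cox8b had H3K36me3 over 100% of its record and H3K27ac over 26.5% and 29.4% of its window at 4% oxygen and 33.2% and 29.6% at 20% oxygen, but neither H3K4me3 nor H3K27ac within 1 kb of its start.

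Cox6a2 lay next to Polycomb chromatin. H3K27me3 covered 71.3% and 74.2% of its window at 4% oxygen and 59.9% and 73.2% at 20% oxygen, and none of the gene record itself. The other 2 genes without H3K4me3 at the start were Ndufb4b and Ndufb4c, short records of 471 and 485 bp. Ndufb4c lay wholly under H3K27me3 in all 4 libraries, with 100% of the window covered. In its H3K27me3 region the log2 ratio of read density, 4% over 20% oxygen, was -0.07 ± 0.12 (SE; edgeR's quasi-likelihood test, Benjamini-Hochberg adjusted p = 0.881). For Ndufb4b the H3K27me3 share was 63.0% and 46.3% at 4% oxygen and 55.2% and 83.4% at 20% oxygen, so the groups overlapped. Whether the authors' read alignment could tell these copies from Ndufb4 is not given in the sources used here.

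Promoters of 70 of the 87 genes were found in the RefSeq promoter table for GRCm38.p6, each with 250 bases before and 50 from the start. A pair of isoform pairs is shown, because the restricted form had less H3K4me3 than its partner in both, none at all in the Cox8 pair. Capitals mark CG dinucleotides, the base pair step that CpG islands are rich in. The Cox7a1 promoter lies at chr7:30183921-30184220 on the plus strand and that of its partner Cox7a2 at chr9:79759804-79760103 on the minus strand. The Cox8b promoter lies at chr7:140900397-140900696 and that of its partner Cox8a at chr19:7217567-7217866, both on the minus strand. All are written 5′ to 3′ along the gene.
Cox7a1: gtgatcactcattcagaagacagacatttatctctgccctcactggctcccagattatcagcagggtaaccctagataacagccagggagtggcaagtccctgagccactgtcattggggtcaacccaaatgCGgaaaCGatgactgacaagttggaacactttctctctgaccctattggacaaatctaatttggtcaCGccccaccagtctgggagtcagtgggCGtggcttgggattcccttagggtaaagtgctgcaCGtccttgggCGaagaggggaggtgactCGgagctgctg
Cox7a2: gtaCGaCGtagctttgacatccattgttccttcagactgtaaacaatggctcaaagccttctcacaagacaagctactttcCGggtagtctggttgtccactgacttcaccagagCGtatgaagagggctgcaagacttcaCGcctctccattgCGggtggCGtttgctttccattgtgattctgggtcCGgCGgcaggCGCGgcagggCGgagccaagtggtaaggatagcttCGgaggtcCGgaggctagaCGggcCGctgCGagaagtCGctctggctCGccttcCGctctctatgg
Cox8b: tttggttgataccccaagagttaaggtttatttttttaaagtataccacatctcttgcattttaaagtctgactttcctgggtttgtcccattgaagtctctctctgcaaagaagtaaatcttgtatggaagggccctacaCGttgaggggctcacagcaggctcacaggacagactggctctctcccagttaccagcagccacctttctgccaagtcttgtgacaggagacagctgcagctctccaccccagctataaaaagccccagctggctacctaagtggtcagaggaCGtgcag
Cox8a: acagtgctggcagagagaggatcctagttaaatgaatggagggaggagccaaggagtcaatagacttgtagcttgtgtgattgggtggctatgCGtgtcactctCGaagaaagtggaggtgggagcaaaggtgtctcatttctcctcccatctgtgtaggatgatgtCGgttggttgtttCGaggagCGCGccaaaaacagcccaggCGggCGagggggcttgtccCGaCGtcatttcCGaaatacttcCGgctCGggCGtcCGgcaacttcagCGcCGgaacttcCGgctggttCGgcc

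Cox7a1 has 7 CG dinucleotides against 20 in Cox7a2, and Cox8b has 2 against 19 in Cox8a. Of the pairs not printed, Cox6b2 has 10 against 17 in Cox6b1. The Cox7b pair runs the other way, with 10 in the restricted Cox7b2 against 5 in Cox7b. There too the restricted form had less H3K4me3 at the start, a mean of 1073 bp over 4 libraries against 1713.5 bp. At the start of Cox7a1, H3K4me3 covered 734 and 923 bp at 4% oxygen, against 931 and 549 bp at 20% oxygen, while Cox7a2 had 2001 and 1904 bp at 4% oxygen, against 2001 and 1795 bp at 20% oxygen. Over the 67 subunit promoters with H3K4me3 in all 4 libraries the median was 19 CG dinucleotides, from 5 to 43. The 3 without it, Cox8b, Ndufb4b and Cox6b2, had 2, 5 and 10. Across all genes in the table the medians were 22 with H3K4me3 and 3 without.

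**Figure D2:**
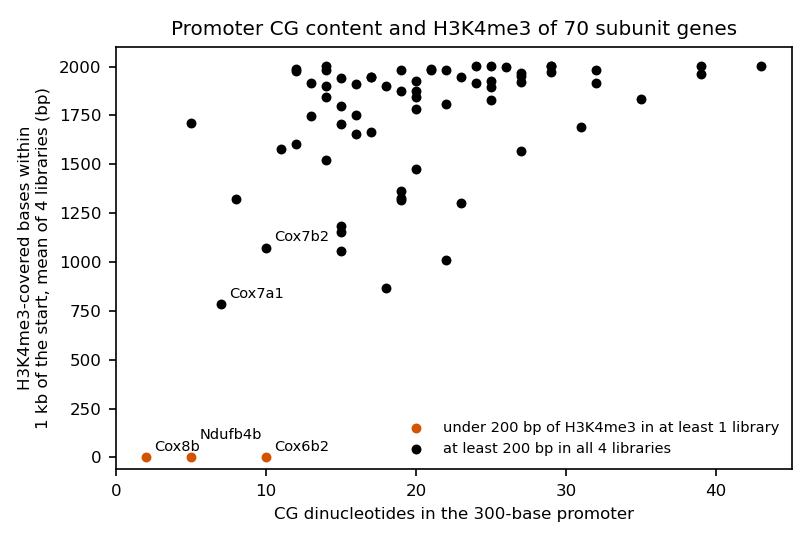
Each point is 1 of the 70 subunit genes with a promoter sequence, with the CG dinucleotides in its 300 bases on the horizontal axis and the mean H3K4me3-covered bases within 1 kb of the start over 4 libraries on the vertical axis. The 3 genes at 0 bp have 2, 5 and 10 CG dinucleotides, and Cox7a1 lies next above them in H3K4me3 with 7.

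Motifs of the factors known for respiratory genes were searched on both strands of the 70 promoters, using the first entry per gene. CCGGAAG, the core bound by ETS factors such as GABP, was found in 16 (22.9%), against 19.5% of promoters of genes with H3K4me3 at the start and 11.9% of all promoters. The NRF1 core GCGCATG was found in 13 (18.6%), against 7.73% and 4.89%, and the YY1 core AAGATGG in 10 (14.3%), against 7.51% and 6.37%. The core of the HIF site, ACGTG or GCGTG, was found in 45 (64.3%), against 65.3% and 49.2%. TATAAA was found in 8 (11.4%), Cox8b among them, against 6.32% and 13.3%, so that it lay between the 2 backgrounds. The 70 include the 3 without H3K4me3. Matches are given as letters only, and Cox7a1 holds 3 of the HIF core.

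No subunit gene passed a test of 4% against 20% oxygen in any mark when the libraries were compared without a replicate block. limma on the window shares, fitted over all genes with a mean share of at least 1%, had no subunit gene at an adjusted p under 0.05. The subunit genes that passed this filter numbered 81 for H3K4me3, 81 for H3K27ac, 65 for H3K4me1, 83 for H3K36me3 and 25 for H3K27me3. At an unadjusted p under 0.05 there were 2, 4, 28, 2 and 1 of them in that order of marks. Over all genes, limma passed 0.0702% for H3K4me3 (10 of 14253) and 0% for each of the other 4 marks. At an unadjusted p under 0.05 there were 263 genes for H3K4me3 (1.85%), 608 for H3K27ac (4.86%) and 3132 for H3K4me1 (27.6%). For H3K36me3 there were 912 (6.92%) and for H3K27me3 467 (6.31%). With the replicate block, which for H3K4me1 is also the flow cell, limma passed 2241 of 11352 genes in H3K4me1. Of the 65 subunit genes tested in that mark 21 passed, and no subunit gene passed in the other marks. In that fit edgeR, run on the reads of broad islands as described below, passed 8 of the 77 regions at subunit genes in H3K36me3. Of these 2 were higher and 6 lower, where 631 of all 10858 regions were higher and 532 lower. With 2 libraries against 2, an exact permutation test of 1 gene cannot go below p = 0.33.

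What follows therefore describes which loci stood apart. A gene window is said to separate when both 4% libraries lie above, or both below, both 20% libraries by at least 1 percentage point, and the share of all protein-coding genes that separate is the background. Where it is given, the second background is the 11714 genes with at least 200 bp of H3K4me3 at the start in all 4 libraries.

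**Figure D3:**
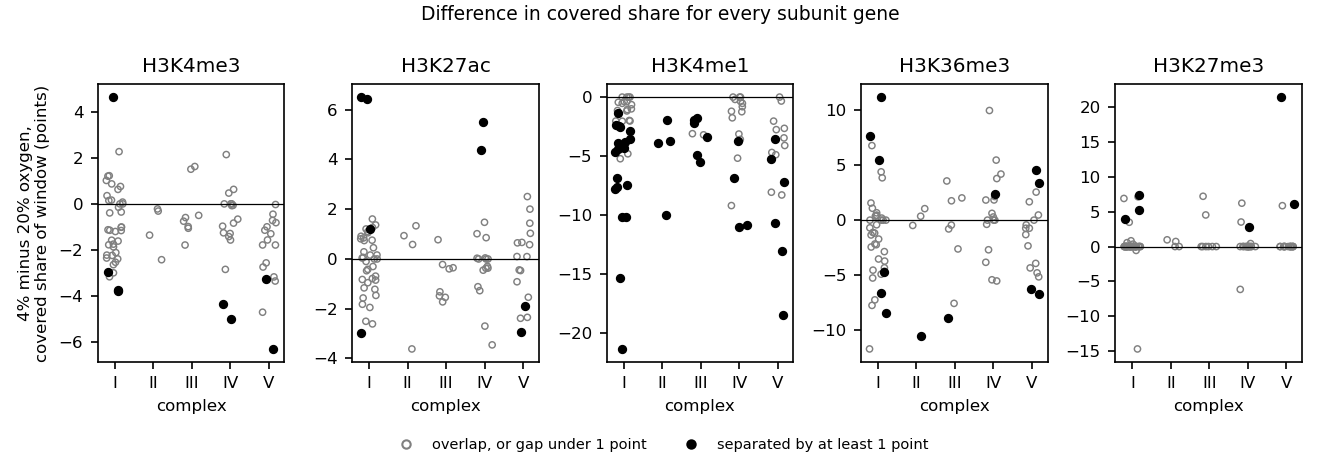
The vertical axis is the difference in covered share, 4% minus 20% oxygen, in percentage points (group means, 2 libraries each), for each of the 87 genes by complex. Filled points separate by at least 1 point, and in the H3K4me1 panel no gene lies above 0.

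H3K27ac at the starts stood lower at 4% oxygen at 17 subunit genes and higher at 9. Within 1 kb of the start, 17 of the 87 genes (19.5%) had less H3K27ac in both 4% libraries, by at least 1 point of the 2001 bp, where the background was 4.75% of all genes and 8.66% of genes with H3K4me3. More H3K27ac was seen at 9 genes (10.3%), where the backgrounds were 10.4% and 18.9%. The counts over start windows were added after the gene windows had been seen. Taken pair by pair the replicates did not run the same way: in replicate 1, 55 genes were lower and 25 higher at 4% oxygen, and in replicate 2, within a flow cell, 32 were lower and 49 higher. As shares, 63.2% of the subunit genes were lower and 28.7% higher in replicate 1, where 42.1% and 44.8% of genes with H3K4me3 were. In replicate 2, 36.8% of the subunit genes were lower and 56.3% higher, where 30.9% and 59.6% of genes with H3K4me3 were. The 17 are those that were lower in every combination by at least 1 point. Leaving out 1 library, which loosens the rule, gave 22 to 40 genes lower (25.3% to 46.0%, where all genes gave 8.26% to 14.3%) and 14 to 29 higher (16.1% to 33.3%, where all genes gave 15.1% to 23.3%).

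By complex, the 17 comprised 7 genes of complex I, 3 of complex III, 2 of complex IV and 5 of complex V. Atp5e, the epsilon subunit of the ATP synthase, stood furthest apart, with 380 and 0 bp at 4% oxygen, against 879 and 826 bp at 20% oxygen. Atp5k had 234 and 270 bp at 4% oxygen, against 730 and 570 bp at 20% oxygen. Uqcr11, a small subunit of complex III, had 431 and 604 bp at 4% oxygen, against 1043 and 954 bp at 20% oxygen. In all 3 both 4% libraries lay below both 20% libraries.

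In complex I, Ndufa5, an accessory subunit, had 703 and 626 bp at 4% oxygen, against 1077 and 1204 bp at 20% oxygen. Ndufb1, another accessory subunit, had 1413 and 1312 bp at 4% oxygen, against 2001 and 1734 bp at 20% oxygen. Among the widely used complex IV isoforms, Cox6a1 had 440 and 438 bp at 4% oxygen, against 593 and 730 bp at 20% oxygen. At the weak end, Atp5c1, the gamma subunit, had 1358 and 1495 bp at 4% oxygen, against 1730 and 1522 bp at 20% oxygen, with only 27 bp between the groups. H3K4me3 filled the window at some of these starts, with 2001 bp in all 4 libraries at Ndufb1, for example. At others it did not. Its mean over the 4 libraries was 1055 bp at Uqcrc1, 1303 bp at Ndufb4, 1316 bp at Ndufb8 and 1364 bp at Atp5k. At Atp5e it covered 1153 and 766 bp at 4% oxygen, against 1182 and 944 bp at 20% oxygen.

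Over the whole window, H3K27ac separated lower at 3 genes, Ndufb1, Atp5e and Atp5k (backgrounds 1.17% of all genes and 1.54% of those with H3K4me3). At Ndufb1 (chr12:101968096-101975738) the share was 5.29% and 4.96% at 4% oxygen and 8.400% and 7.80% at 20% oxygen, a difference of -2.98 points (SE 1.13, limma adjusted p = 0.977). At Atp5e (chr2:174461075-174464101) it was 11.8% and 12.8% at 4% oxygen and 15.8% and 14.7% at 20% oxygen. At Atp5k (chr5:108433246-108434399) it was 1.11% and 1.28% at 4% oxygen and 3.45% and 2.69% at 20% oxygen, a difference of -1.88 points (SE 0.529, limma adjusted p = 0.930). All 3 also stood lower at the start.

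The 9 genes with more H3K27ac at the start were led by Cox4i2, and 4 of them belong to complex IV. Ndufs5, an accessory subunit of complex I, had 628 and 667 bp at 4% oxygen, against 364 and 322 bp at 20% oxygen. Ndufs3, a core subunit, had 1349 and 1425 bp at 4% oxygen, against 1122 and 1018 bp at 20% oxygen. Sdhc had 1046 and 1290 bp at 4% oxygen, against 846 and 713 bp at 20% oxygen. Cox6b1, a widely used isoform, had 795 and 872 bp at 4% oxygen, against 571 and 597 bp at 20% oxygen. The other members of this group were Cox7a1, Ndufa8, Cox7b and Atp5j.

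**Figure D4:**
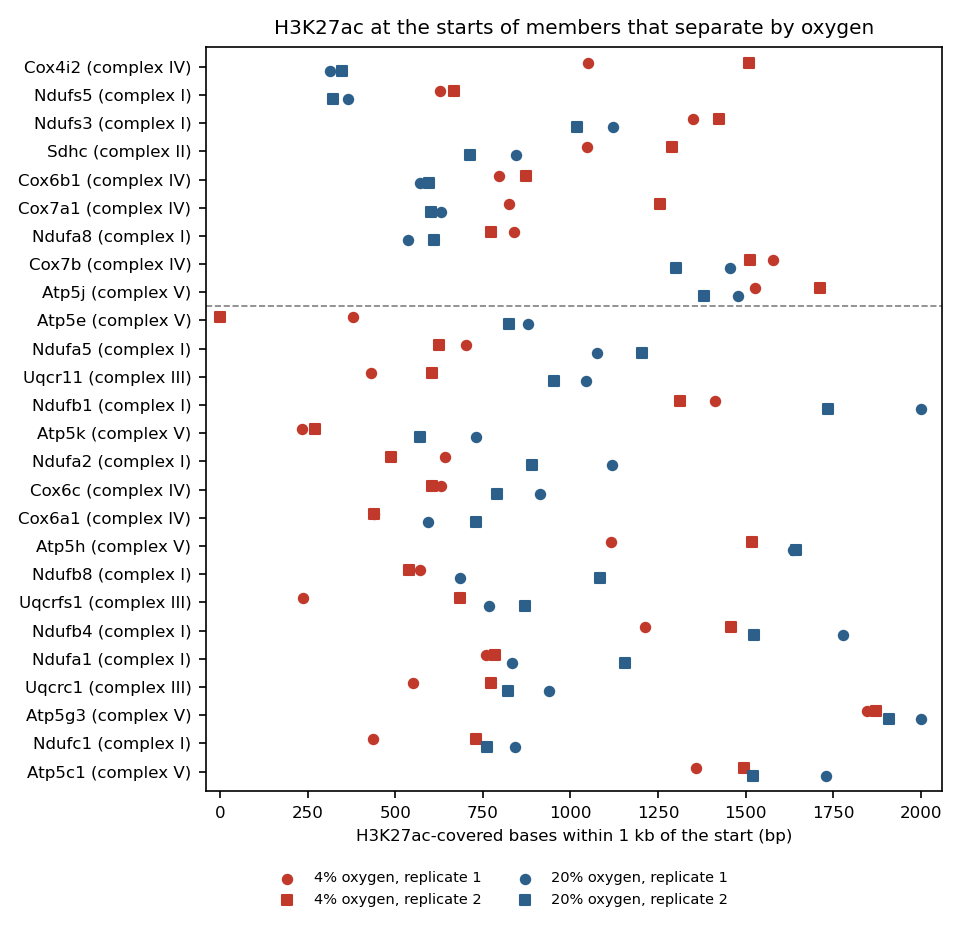
The horizontal axis is the H3K27ac-covered length within 1 kb of the start in bp, with 1 row per subunit gene that separates and 1 point per library. The 9 genes above the dashed line are higher at 4% oxygen, Cox4i2 by the widest gap (701 bp), and the 17 below it are lower, Atp5e by the widest gap (446 bp).

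Over the window, H3K27ac separated higher at 5 genes, Cox4i2, Cox7a1, Ndufa4l2, Ndufc1 and Ndufs5 (5.75%), where the backgrounds were 5.37% of all genes and 8.21% of those with H3K4me3. The count is thus near the background, and 3 of the 5 are restricted isoforms. Of 5 genes listed for comparison as known hypoxia targets, Adm, Pdk1, Bnip3 and Ldha separated higher and Vegfa did not.

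At Cox4i2 (chr2:152753916-152765039) the promoter peak was wider at 4% oxygen in both marks. H3K27ac covered 1050 and 1509 bp of the start at 4% oxygen, against 315 and 349 bp at 20% oxygen. The peak itself was 1729 and 2122 bp long at 4% oxygen, against 727 bp and, in 2 pieces, 565 and 402 bp at 20% oxygen. H3K4me3 peaks were 1837 and 2059 bp long at 4% oxygen, against 1535 bp and, in 2 pieces, 841 and 183 bp at 20% oxygen. These peaks lay at the lower end of the gene record. Elsewhere in the window there were only 2 short H3K27ac peaks, of 310 and 254 bp, in the 4% library of replicate 2.

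Over the Cox4i2 window, H3K27ac was 5.56% and 8.63% at 4% oxygen and 2.34% and 3.11% at 20% oxygen, a difference of 4.37 points (SE 1.30, limma adjusted p = 0.954, unadjusted p = 0.0181). H3K4me3 was 5.90% and 6.62% at 4% oxygen and 4.93% and 3.29% at 20% oxygen, also without overlap but with a gap under 1 point. H3K36me3 was found in only 1 library of each group, with 33.4% and 0% at 4% oxygen and 0% and 13.5% at 20% oxygen. No H3K27me3 was found there.

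Cox4i1 (chr8:120668225-120674209), the partner of Cox4i2, showed no such widening. H3K27ac at its start covered 662 and 1447 bp at 4% oxygen, against 1309 and 1250 bp at 20% oxygen, so the groups overlapped. Its window had H3K4me3 over 12.2% and 17.2% at 4% oxygen and 16.5% and 18.6% at 20% oxygen, and H3K36me3 over 72.3% and 69.2% at 4% oxygen and 75.3% and 71.5% at 20% oxygen. The start lies 138 bp from the record of Emc8, and the record of Gm27021 ends nearer still, so the peaks there may belong to any of these genes. The difference between the 2 isoforms was not tested.

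Ndufa4l2 (chr10:127509274-127517154) was the only subunit gene whose window separated higher in H3K4me3, at 1 of 87 genes (1.15%) against a background of 0.311%. H3K4me3 covered 37.8% and 36.7% at 4% oxygen and 33.9% and 31.3% at 20% oxygen, a difference of 4.65 points (SE 4.81, limma adjusted p = 1). With the lists cut to equal peak numbers no subunit gene separated higher, and the difference at Ndufa4l2 was 2.93 points. Within the gene record itself the shares were 87.0% and 79.3% at 4% oxygen and 74.6% and 65.6% at 20% oxygen, and over records alone 5 subunit genes, Ndufa4l2, Cox4i2, Cox7a1, Ndufc1 and Ndufa2, separated higher (5.75%, against 0.731% of all genes). A peak inside the record, beginning 4878 and 5090 bp from its lower end at 4% oxygen and 5500 and 5700 bp at 20% oxygen, was 2460 and 2043 bp long at 4% oxygen and 1005 and 982 bp at 20% oxygen. At the record end with the most H3K4me3 the groups overlapped, with 1720 and 1403 bp at 4% oxygen, against 1754 and 1594 bp at 20% oxygen.

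H3K27ac lay over nearly the whole Ndufa4l2 record at both oxygen levels, 100% and 95.9% at 4% oxygen and 95.3% and 93.3% at 20% oxygen. The window share was 44.0% and 46.1% at 4% oxygen and 35.5% and 41.7% at 20% oxygen, a difference of 6.43 points (SE 6.80, limma adjusted p = 0.997). Most of the extra length lay outside the record, over the neighbouring Shmt2, which encodes a mitochondrial serine hydroxymethyltransferase, and Stac3 lies 451 bp from the other end. H3K36me3 covered 27.3% and 12.1% of the record at 4% oxygen and 17.2% and 27.3% at 20% oxygen, with the groups overlapping. The H3K36me3 region at this record, chr10:127515001-127523400, also spans Shmt2. Its log2 ratio of read density, 4% over 20% oxygen, was 0.35 ± 0.15 (SE; edgeR's quasi-likelihood test, adjusted p = 0.541). With the replicate block, where 631 of 10858 regions passed as higher, the ratio was 0.35 (edgeR adjusted p = 0.0471). Which of the 2 genes it belongs to was not tested.

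Ndufa4 (chr6:11900372-11907450) differed from Ndufa4l2 in having a narrow H3K27ac peak and H3K36me3 along the record. H3K27ac covered 1107 and 1323 bp of its start at 4% oxygen, against 1272 and 1358 bp at 20% oxygen. H3K36me3 covered 93.6% and 99.3% of the record at 4% oxygen and 93.6% and 96.5% at 20% oxygen. In both marks the groups overlapped.

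Cox7a1 (chr7:30184171-30186030), whose promoter is printed above, had H3K27ac over 824 and 1256 bp of its start at 4% oxygen, against 632 and 603 bp at 20% oxygen. Its window share was 14.5% and 19.2% at 4% oxygen and 11.0% and 11.7% at 20% oxygen, a difference of 5.51 points (SE 2.61, limma adjusted p = 0.988). Replicate 2 carried most of this, with 78.0% of the record covered at 4% oxygen against 21.6% at 20% oxygen, while in replicate 1 it was 30.1% against 23.98%. Of 9 muscle markers, only Myog carried H3K4me3 at the start in all 4 libraries, and none separated by oxygen in H3K4me3 or H3K27ac. At 7 of the 9, Ckm, Myod1, Acta1, Myh4, Mb, Tnni3 and Myh6, H3K27ac at the start was 0 bp in all libraries. Summed over the 9 starts it was 1293 and 1701 bp at 4% oxygen, against 337 and 2369 bp at 20% oxygen. The part of these genes in the Cox7a1 result was not tested.

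**Figure D5:**
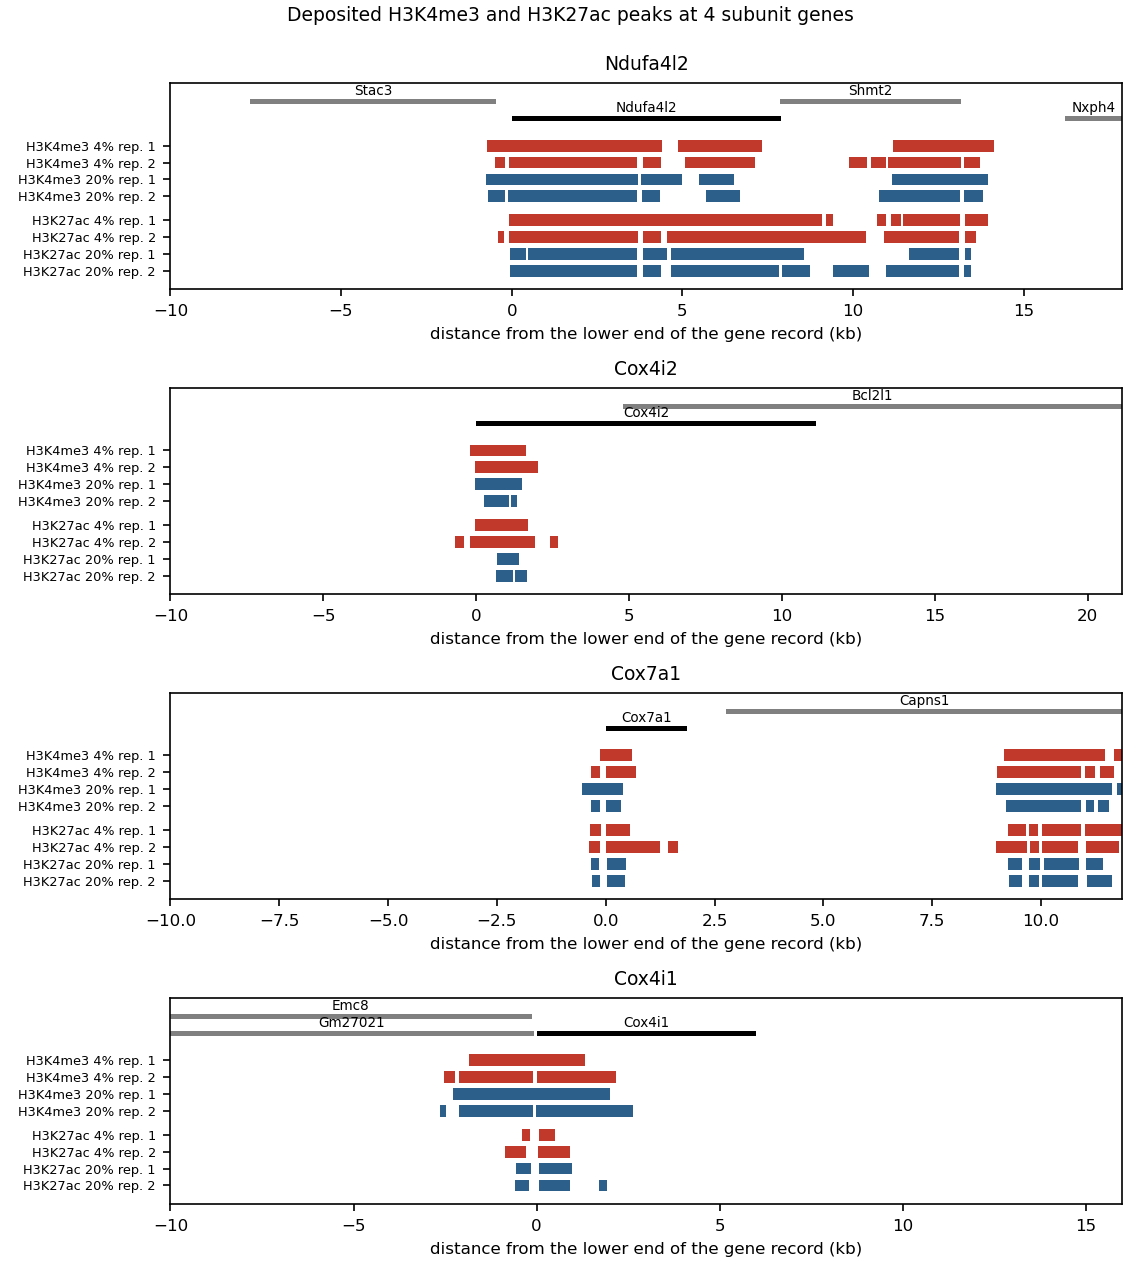
Bars are the deposited H3K4me3 and H3K27ac peaks of each library at 4 subunit genes, plotted by distance in kb from the lower end of the gene record, with gene records on top (black for the subunit gene, grey for its neighbours). At Cox4i2 the 4% peaks are longer than the 20% peaks in both marks, at Ndufa4l2 the H3K4me3 peak towards the upper end of the record is longer at 4% oxygen, and at Cox4i1 the groups overlap.

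The window gains at Ndufc1 and Ndufs5 differed in place. At Ndufc1 (chr3:51405479-51408955), an accessory subunit, the window had 16.7% and 20.9% at 4% oxygen and 13.0% and 11.6% at 20% oxygen, but its own start had less, 436 and 730 bp at 4% oxygen, against 843 and 763 bp at 20% oxygen. The gain therefore lay elsewhere in the window. At Ndufs5 (chr4:123712710-123718186) the window had 2.46% and 2.62% at 4% oxygen and 1.43% and 1.26% at 20% oxygen, with the gain at the start as given above.

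H3K4me3 windows separated lower at 7 subunit genes (8.05%), against backgrounds of 1.8% of all genes and 2.87% of those with H3K4me3. They were Cox6a1, Cox5b, Ndufb6, Ndufb9, Ndufa7, Atp5h and Atp5g3. Atp5h (chr11:115415691-115419919), subunit d of the peripheral stalk, had 24.1% and 30.7% at 4% oxygen and 34.6% and 32.8% at 20% oxygen, a difference of -6.32 points (SE 4.28, limma adjusted p = 1). Cox6a1 (chr5:115345652-115348958) had 20.4% and 24.04% at 4% oxygen and 26.4% and 28.1% at 20% oxygen. Ndufb6 (chr4:40270591-40279421), an accessory subunit, had 18.3% and 17.97% at 4% oxygen and 23.3% and 20.5% at 20% oxygen. At the starts of these 3 genes the mark covered 1823 to 2001 bp in every library, and where in the windows the difference lay was not tested.

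Across all 87 genes the median H3K4me3 difference was -1.06 points, against -0.29 over genes with H3K4me3 at the start. It was -2.82 points in replicate 1 and 0.44 points in replicate 2, so the replicates pointed opposite ways. Leaving out the 4% library of replicate 2, which loosens the rule, gave 50 genes lower (57.5%, against 19.9% of all genes). Leaving out that of replicate 1 gave 17 higher (19.5%, against 9.25% of all genes).

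H3K4me1 windows separated lower at 4% oxygen at 40 of the 87 genes (46.0%) and higher at 0, where the backgrounds were 27.9% of all genes and 42.2% of genes with H3K4me3 for lower and 0.0274% of all genes for higher. The count is thus near that of other genes with H3K4me3. The median window had 0.701% and 0.846% at 4% oxygen and 5.84% and 3.15% at 20% oxygen. By complex, the lower genes were 20 of 40 in complex I, 4 of 4 in complex II, 6 of 8 in complex III, 4 of 18 in complex IV and 6 of 17 in complex V. Of the 79 genes with any H3K4me1 in the window, all 79 had a lower mean at 4% oxygen, as did 96.9% of all genes with any and 97.6% of those that also had H3K4me3 at the start. Without the 20% library of replicate 2, which loosens the rule, 68 genes separated lower (78.2%, against 51.2% of all genes).

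Atp5d (chr10:80138698-80145828), the delta subunit, had H3K4me1 over 15.1% and 10.1% of the window at 4% oxygen and 33.9% and 28.3% at 20% oxygen, a difference of -18.5 points (SE 4.37, limma adjusted p = 0.156). Ndufa4l2 had 9.17% and 9.996% at 4% oxygen and 40.9% and 20.9% at 20% oxygen. Atp5h had 3.19% and 6.06% at 4% oxygen and 18.8% and 16.6% at 20% oxygen. These 3 stood furthest apart between their nearest libraries. Cox4i1 had 0.870% and 0.720% at 4% oxygen and 9.12% and 6.22% at 20% oxygen, and Ndufa4 had 0% and 0.742% at 4% oxygen and 6.17% and 3.02% at 20% oxygen.

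Within complex II, Sdhb, the iron-sulfur subunit, had 18.8% and 12.3% at 4% oxygen and 31.2% and 19.9% at 20% oxygen, and Sdhd, the other membrane anchor, 0.851% and 2.59% at 4% oxygen and 3.72% and 3.69% at 20% oxygen. Both H3K4me1 replicates compared oxygen levels within a flow cell but on different lanes, so lane and oxygen cannot be told apart in this mark. The genome-wide covered length given above moved with this result, and its part in it was not tested.

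H3K36me3 over the windows separated higher at 6 genes (6.90%), against 3.56% of all genes and 5.83% of those with H3K4me3, and lower at 7 (8.05%), against 10% and 15.2%. Ndufb10 (chr17:24722060-24724423), an accessory subunit, had 44.7% in both 4% libraries and 33.1% and 34.0% at 20% oxygen, a difference of 11.2 points (SE 2.60, limma adjusted p = 0.596). Ndufc1 had 46.7% and 41.6% at 4% oxygen and 35.6% and 37.3% at 20% oxygen. Atp5o, the subunit that joins the stalk to the catalytic head, had 38.6% and 37.1% at 4% oxygen and 34.1% and 34.8% at 20% oxygen.

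Sdhd (chr9:50596340-50603849) stood furthest apart on the lower side, with 62.7% and 63.4% at 4% oxygen and 73.6% in both 20% libraries, a difference of -10.5 points (SE 1.57, limma adjusted p = 0.475). Its own record did not follow, with 88.7% and 91.4% at 4% oxygen and 86.7% and 83.4% at 20% oxygen. Atp5g2, a gene for the c subunit, had 39.7% in both 4% libraries and 47.6% and 45.4% at 20% oxygen. Ndufs6 had 48.9% and 45.4% at 4% oxygen and 53.8% in both 20% libraries.

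The reads within the H3K36me3 islands were compared as well. Of the 87 genes, 77 lay in a region with islands in all 4 libraries, and the log2 ratio of read density, 4% over 20% oxygen, ran from -0.42 to 0.42 with a median of -0.03, against 0.01 over all 10858 regions. edgeR's quasi-likelihood test passed 0% of regions in this mark and 0% of 10177 in H3K27me3 after adjustment. At an unadjusted p under 0.05 there were 965 regions in H3K36me3 (8.89%), 5 of them among the 77 at subunit genes. In H3K27me3 there were 959 (9.42%). DESeq2 passed 2 regions in H3K36me3 and 0 in H3K27me3. Ndufs6, an accessory subunit, had the lowest ratio, -0.42 ± 0.12 (SE; edgeR adjusted p = 0.471). Uqcr10, a small subunit of complex III, had the highest, 0.42 ± 0.16 (SE; edgeR adjusted p = 0.498).

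H3K27me3 reached 27 of the 87 windows and separated higher at 6 genes (6.90%), against 6.31% of all genes and 5.92% of those with H3K4me3, and lower at 0, against 1.38% of all genes. Atp5g1 (chr11:96072793-96075694), another gene for the c subunit, had 33.6% and 31.8% of the window covered at 4% oxygen and 9.14% and 13.5% at 20% oxygen, a difference of 21.4 points (SE 2.96, limma adjusted p = 0.567). Ndufb7 had 33.1% and 34.0% at 4% oxygen and 25.9% and 26.5% at 20% oxygen. Atp5g2 had 23.6% in both 4% libraries and 18.6% and 16.5% at 20% oxygen. The others were Ndufa2, Ndufb8 and Cox6b1. Without the 4% library of replicate 2, which loosens the rule, 19 genes separated higher (21.8%, against 16.9% of all genes). None of the 6 gene records was covered at all, so the islands lay in the flanks, and only Cox6b1 had any within 1 kb of its start, 114 bp in both 4% libraries and 0 bp in both 20% libraries.

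Genes that serve the chain without being its subunits were counted from lists. Of 48 assembly factors, all 48 carried H3K4me3 at the start in all 4 libraries. In H3K27ac windows 2 separated higher, Ndufaf1 and Higd1a (4.17%, where the backgrounds were 5.37% of all genes and 8.21% of those with H3K4me3). Lower were 2, Ndufaf4 and Ndufaf8 (4.17%, where the backgrounds were 1.17% and 1.54%). H3K4me3 separated lower at 2, Bcs1l and Cox20 (4.17%, where the backgrounds were 1.8% and 2.87%), and higher at none. H3K4me1 separated lower at 16 (33.3%, where the backgrounds were 27.9% and 42.2%). H3K36me3 separated higher at 2 (4.17%, where the backgrounds were 3.56% and 5.83%) and lower at 10 (20.8%, where the backgrounds were 10% and 15.2%). Of 15 regulators of mitochondrial biogenesis, 14 carried H3K4me3 at the start, and in H3K27ac none separated in either direction. H3K4me1 separated lower at 5 of them (33.3%, where the backgrounds were 27.9% and 42.2%). H3K36me3 did so at 4, Ppargc1b, Gabpa, Gabpb1 and Tfam (26.7%, where the backgrounds were 10% and 15.2%). Of 8 electron carriers and side entries, none separated in H3K27ac, and H3K4me1 separated lower at 2 (25%, where the backgrounds were 27.9% and 42.2%). H3K36me3 separated lower at Gpd2 and Aifm1 (25%, where the backgrounds were 10% and 15.2%). Of the 7 core subunits of complex I, none separated in H3K27ac or H3K4me3. H3K4me1 separated lower at 4 of them (57.1%, where the backgrounds were 27.9% and 42.2%). H3K36me3 separated lower at 1, Ndufv1 (14.3%, where the backgrounds were 10% and 15.2%). The lists are small, and their shares were not tested against the backgrounds.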

How the data were processed

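Histone-mark ChIP-seq was deposited for 20 immunoprecipitated libraries of N1E115 cells. The 4 inputs were not used here. The submitters' processing notes name BWA, Picard, MACS2, SICER and the build mm10, without versions. Per the file headers, each library had its own peak list. The deposited score of a MACS2 peak (H3K4me3, H3K27ac, H3K4me1) is the authors' own −log10 value, taken so from its layout. The deposited whole number of a SICER island (H3K36me3, H3K27me3) is read as its count of reads, the authors' unnormalised value. The interval lists of the second MACS2 libraries came with the first libraries, and names and scores matched their summit lists in 100% of entries.

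Each library's covered share of every gene window was computed in Python 3.11.15. limma 3.58.1 compared the shares over all genes with a mean of at least 1%, with a trend. edgeR 4.0.16 compared island counts over merged regions, with the log of the covered length as offset, a region belonging to a gene whose record it overlaps by at least 1 bp. DESeq2 1.42.0 was an alternative. p-values were Benjamini-Hochberg adjusted, threshold 0.05. The scripts were tested on simulated data. Starts came from the RefSeq promoter table for 70 genes. For the other 17 the record end with more H3K4me3 was taken, since the gene table has no strand. The members and lists were chosen with earlier results of these data known. Named genes were Ndufa4l2, Cox4i1, Cox4i2 and Ndufa4, up to 3 separating genes per mark and direction by the smallest gap, the isoform lists, genes lacking H3K4me3 or carrying H3K27me3 at the start, and the extremes of H3K36me3 per complex. Other genes named from the start windows were chosen after their values were seen.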

Additional observations from a re-analysis of the deposited data

How the results depend on the processing

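Counts below are genes passing limma, or regions passing edgeR, over the whole table, and subunit genes that separate. The labels do not pair the replicate numbers, though each number of H3K4me1 shared a flow cell (the correlation of same-numbered deviations was 0.229 for H3K4me3, 0.641 for H3K27ac, 0.456 for H3K4me1, 0.145 for H3K36me3 and 0.531 for H3K27me3, over 2 pairs). With a replicate block, limma passed 33 genes for H3K4me3 (against 10) and 2241 of 11352 for H3K4me1 (against 0). The latter held 21 of the 65 subunit genes tested. edgeR then passed 1163 of 10858 regions for H3K36me3, with 8 of the 77 at subunit genes, and 1138 of 10177 for H3K27me3. Among regions covered to at least 0.9 in each library, the replicate block gave 818 and 443. The gene record alone, the stricter peak threshold, equal peak numbers and no filter each gave 0 for H3K4me3 in limma. The record alone gave 10 for H3K27me3, the arcsine scale 1 for H3K36me3 and DESeq2 2 for H3K36me3. Leaving out 1 library, limma gave 2 to 108 genes for H3K4me3, 0 to 39 for H3K27ac, 0 to 2438 for H3K4me1 and 0 to 649 for H3K27me3, and edgeR 0 to 50 regions for H3K36me3 and 0 to 128 for H3K27me3. A lone library was then assumed to vary like the other group.

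Separation over the record alone gave, for H3K4me3, 5 genes higher (5.75%, all genes 0.731%) and 15 lower (17.2%, all genes 3.59%). For H3K27ac it gave 16 lower (18.4%, all genes 2.35%), and for H3K4me1 1 higher (1.15%, all genes 0.0959%). For H3K36me3 it gave 14 higher (16.1%, all genes 4.87%) and 4 lower (4.60%, all genes 7.05%). For H3K27me3 it gave 0 higher (all genes 2.56%). With any gap above 0, H3K4me3 had 2 higher (2.30%, all genes 3.08%) and 22 lower (25.3%, all genes 11.2%). H3K27ac then had 13 higher (14.9%, all genes 15.6%) and 13 lower (14.9%, all genes 5.00%), and H3K36me3 13 lower (14.9%, all genes 12.9%). A gap of 3 points left, for H3K4me3, 0 higher (all genes 0.0274%) and 0 lower (all genes 0.105%). For H3K27ac it left 1 higher (1.15%, all genes 1.22%) and 0 lower (all genes 0.206%), and for H3K4me1 15 lower (17.2%, all genes 13.4%). For H3K36me3 it left 2 higher (2.30%, all genes 1.51%) and 4 lower (4.60%, all genes 6.16%). With equal peak numbers H3K4me3 had 0 higher (all genes 0.265%), so the call at Ndufa4l2 ended, and H3K27ac 7 lower (8.05%, all genes 1.48%). A gap of 5 points left 10 start windows lower in H3K27ac (11.5%, all genes 2.72%). Leaving out 1 library gave the counts that follow, with the share of the 87 and then of all genes in brackets. H3K4me3 had 1 to 17 higher (1.15% to 19.5%, 0.667% to 9.25%) and 8 to 50 lower (9.20% to 57.5%, 2.53% to 19.9%). H3K27ac had 6 to 21 higher (6.90% to 24.1%, 6.92% to 23.6%) and 4 to 26 lower (4.60% to 29.9%, 1.80% to 8.79%). H3K4me1 had 0 to 1 higher (0% to 1.15%, 0.0548% to 1.15%) and 43 to 68 lower (49.4% to 78.2%, 30.6% to 51.2%). H3K36me3 had 11 to 18 higher (12.6% to 20.7%, 8.06% to 12.2%) and 18 to 25 lower (20.7% to 28.7%, 14.7% to 22.3%). H3K27me3 had 7 to 19 higher (8.05% to 21.8%, 8.70% to 16.9%) and 0 to 4 lower (0% to 4.60%, 2.74% to 6.62%). H3K27ac starts had 14 to 29 higher and 22 to 40 lower. Fewer libraries make the rule easier to meet; for the other alternatives the cause was not tested.

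The difference changed sign over the start for H3K4me3 at Ndufb6 (2.02 points), Cox6a1 (0.425) and Ndufa4l2 (-5.62), and for H3K27ac at Ndufc1 over the record (-2.44) and the start (-11.0), and over the record for H3K36me3 at Sdhd (5 points) and Ndufs6 (4.65). Of the other values of single genes, 230 moved by less than the spread between libraries and 62 by more. The depth of the MACS2 libraries is unknown, so wider peaks and deeper libraries were not separated.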
